A study of Mus musculus with 11 samples.

Results

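Of 23284 genes measured in mouse embryonic stem cells (ESCs), 7 are described here: Fgf5 and the transcription factor genes Otx2, Pou3f1, Zic2, Foxd3, Sall2 and Grhl2. They were chosen by symbol as markers of the formative and primed epiblast, and each was found once in every one of the 11 libraries. The 7 genes were compared across 5 groups. Of these, 4 groups of 2 libraries each were made from total RNA after ribodepletion: WT ESCs and ESCs knocked out for Tet1, Tet2 and Tet3 (triple knockout, TKO), at 0 h and 4 h of treatment with α-amanitin (10 µg/ml), which blocks RNA polymerase II. The remaining group was made of 3 WT libraries of polyA RNA, for which no amanitin is given. Cells of both genotypes were grown on gelatin in serum with leukaemia inhibitory factor, the cytokine that keeps mouse ESCs self-renewing. The number of TKO clones, and whether the WT cells were their parental line, are not given in the sources used here, so a difference between genotypes and a difference between lines cannot be told apart. The study describes the α-amanitin samples as biological duplicates. It states in general that experiments were repeated independently but says nothing in particular of the polyA libraries, so their spread may be technical. In bulk RNA, fewer cells expressing a gene and less RNA per cell cannot be told apart.

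ESCs in serum and leukaemia inhibitory factor sit close to the naive state of the preimplantation epiblast. On leaving that state, cells pass through a formative phase to the primed epiblast, which is the state of the epiblast after implantation. Fgf5 encodes a secreted fibroblast growth factor and is the classical marker of this transition. Otx2 and Pou3f1 (Oct6) are induced early and, with Oct4, move to new enhancers, Zic2, Foxd3 and Grhl2 bind enhancers that change over at this step, and Sall2 is a zinc finger factor of the spalt family. TET enzymes oxidise 5-methylcytosine in DNA and also in RNA.

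Recovered from the steps of the values, depth was between 25507874 and 29781366 reads for ribodepletion and between 72639837 and 82129168 reads for polyA selection. In the TKO libraries at 0 h, Tet1 fell by 2.11 and Tet2 by 2.64 on the log2 scale against WT, while Tet3 did not differ detectably (WT, 1.47 ± 0.00799 TPM, and TKO, 1.57 ± 0.102 TPM, SD, n = 2 each). The ESC markers Pou5f1, Sox2, Nanog, Zfp42, Esrrb and Dppa5a were all above 5 TPM in every group. The first principal component of the ribodepleted libraries (74.9% of the variance) separated the genotypes and the second (14.5%) followed the treatment. On the second component TKO replicates 1 and 2 at 4 h scored -2.4 and -15 and so stood apart, against 8.1 and 7.8 for those at 0 h. Values without TKO 4 h replicate 1 are therefore given where they change a call.

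Levels are given first as deposited TPM (a length-corrected share of a library's transcripts), which can be compared between genes. Changes are differences of log2(scaled TPM + 1) from limma, given with their standard error (SE) and Benjamini-Hochberg adjusted p over all tested genes, and the ratios beside them are ratios of mean scaled TPM. Genes past both limits, an adjusted p under 0.05 and more than 1.5-fold, are referred to as called.

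Fgf5 is the single ligand of the set (chromosome 5, 98683203 to 98706049, plus strand; all positions are from the GENCODE annotation of NCBIM37, the assembly also named mm9). It was at 0.354, 0.220 and 0.193 TPM in the polyA libraries, at 0.343 and 0.443 TPM in WT at 0 h, and at 0.294 and 0.385 TPM in WT at 4 h. The TKO libraries were at 2.19 and 2.12 TPM at 0 h and at 1.5 and 1.66 TPM at 4 h. All 4 TKO libraries lay above all 7 WT libraries. The values rest on 11 to 16 reads in each ribodepleted WT library and on 49 to 82 reads in each TKO library. At 0 h Fgf5 rose in TKO by 1.11 on the log2 scale (SE 0.113, adjusted p = 6.49e-05), and its mean scaled TPM was 5.11 times that of WT. Because 1 TPM was added before the logarithm, the log2 change understates that ratio, and with 5 TPM added it was 0.38 (0.29 at 4 h) and Fgf5 was no longer called, whereas limma voom on the recovered reads gave 2.33 (2.03 at 4 h). With a mean scaled TPM of 1.08 over the 8 libraries and 0.382 in WT alone, Fgf5 passed the filter on low values (mean above 1) only through its TKO level, so it could hardly have been tested without being higher there.

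Sall2 (chromosome 14, 52930847 to 52948437, minus strand) was at 3.70 and 3.57 TPM in WT at 0 h and at 18.8 and 19.3 TPM in TKO at 0 h. At 4 h it was at 2.5 and 3.08 TPM in WT and at 18.4 and 15.5 TPM in TKO, and the polyA libraries held the lowest values, 1.53, 1.69 and 1.45 TPM. The WT and TKO libraries were far apart at both times. At 0 h Sall2 rose in TKO by 2.02 (SE 0.085, adjusted p = 6.79e-07), a ratio of 4.91, and ranked 41 from the highest log2 change among 12467 tested genes. The gap at 4 h was 2.12 (SE 0.085, adjusted p = 4.81e-07).

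Promoter sequence from RefSeq was at hand for 4 of the 7 genes (Fgf5, Sall2, Foxd3 and Otx2), 250 bases before and 50 bases after each annotated start on GRCm38.p6. Each of the 8 promoters of these genes had exactly 1 match on the annotated strand of its own chromosome in NCBIM37. Other chromosomes were not searched. CpG dinucleotides are the usual place of the methylated cytosines on which TET enzymes act in DNA, and they are in capitals below. Sequences are shown for Fgf5 and Sall2, which were called higher in TKO, and for Foxd3, which was not, in the order Fgf5 at chr5:98682953-98683252 on the plus strand, Sall2 at chr14:52935949-52936248 and chr14:52948296-52948595 on the minus strand, and Foxd3 at chr4:99322740-99323039 on the plus strand (NCBIM37).
Fgf5: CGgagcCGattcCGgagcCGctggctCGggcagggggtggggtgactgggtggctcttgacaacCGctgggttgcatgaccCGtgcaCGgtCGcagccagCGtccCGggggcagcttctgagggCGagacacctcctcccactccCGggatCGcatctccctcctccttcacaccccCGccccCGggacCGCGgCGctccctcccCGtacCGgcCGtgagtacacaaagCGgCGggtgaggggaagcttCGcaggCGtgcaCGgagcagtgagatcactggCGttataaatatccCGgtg
Sall2, downstream start: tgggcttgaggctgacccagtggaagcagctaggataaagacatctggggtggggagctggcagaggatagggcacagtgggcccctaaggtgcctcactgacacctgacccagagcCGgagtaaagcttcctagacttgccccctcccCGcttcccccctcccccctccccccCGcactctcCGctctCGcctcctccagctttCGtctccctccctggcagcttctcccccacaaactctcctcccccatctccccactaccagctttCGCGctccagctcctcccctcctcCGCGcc
Sall2, upstream start: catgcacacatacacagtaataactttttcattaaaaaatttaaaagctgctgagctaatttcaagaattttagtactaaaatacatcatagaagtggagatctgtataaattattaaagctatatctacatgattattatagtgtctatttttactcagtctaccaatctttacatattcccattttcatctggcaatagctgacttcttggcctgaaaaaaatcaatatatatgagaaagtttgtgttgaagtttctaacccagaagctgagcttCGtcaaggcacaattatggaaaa
Foxd3: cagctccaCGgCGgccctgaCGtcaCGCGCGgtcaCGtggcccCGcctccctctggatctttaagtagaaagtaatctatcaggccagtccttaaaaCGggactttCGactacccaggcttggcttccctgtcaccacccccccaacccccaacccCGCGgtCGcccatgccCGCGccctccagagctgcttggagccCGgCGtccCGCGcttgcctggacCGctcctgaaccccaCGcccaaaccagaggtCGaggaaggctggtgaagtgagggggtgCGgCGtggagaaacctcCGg
The Fgf5 promoter held 29 CpG and the Foxd3 promoter 25, against a median of 7 over 32851 promoters in the table. The downstream Sall2 promoter held 10 CpG and the upstream 1, and the 4 Otx2 promoters held 6 to 16. Methylation of the CpG was not analysed here, and a link between CpG number and the changes in TKO was not tested. Sites of the members' own families were searched on both strands: TAATCC for OTX, ATTTGCAT for POU, AACCGGTT for GRHL and TGTTTAC for FOX factors, which occur in 7.06%, 1.74%, 0.146% and 3.65% of all promoters. Among the 8 promoters the only match was TAATCC in 1 of the 4 Otx2 promoters.

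Zic2 (chromosome 14, 122874604 to 122879074, plus strand) encodes a zinc finger factor bound at enhancers of pluripotent cells. It was at 8.99 and 7.44 TPM in WT at 0 h, at 5.20 and 4.92 TPM in WT at 4 h, and at 7.47, 7.43 and 7.43 TPM in the polyA libraries. In TKO it was at 17.7 and 16.3 TPM at 0 h and at 14.7 and 11.7 TPM at 4 h. Every TKO library was above every WT library. Zic2 rose in TKO by 0.88 at 0 h (SE 0.101, adjusted p = 0.000121), a ratio of 1.94, and by 1.08 at 4 h (SE 0.101, adjusted p = 3.56e-05).

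Pou3f1 (chromosome 4, 124334896 to 124337899, plus strand), a POU domain factor, was at 6.62 and 7.04 TPM in WT and at 11.1 and 10.9 TPM in TKO at 0 h. At 4 h it was at 5.19 and 5.53 TPM in WT and at 8.95 and 9.23 TPM in TKO, and the polyA libraries were at 9.36, 9.34 and 9.30 TPM. The TKO libraries were again above the WT libraries at the same time. The log2 change at 0 h was 0.52 (SE 0.0762, adjusted p = 0.000476), which passed the limit on p but not that on fold, so Pou3f1 was not called. At 4 h the change was 0.53 (SE 0.0762, adjusted p = 0.000388) and was not called either. Pou3f1 lay close to the limit: it was called at 0 h with the deposited TPM left unscaled (0.61) and by limma voom (0.59). At 4 h it was called in the same settings (0.67 and 0.60), with 0.1 TPM added (0.60) and without TKO 4 h replicate 1 (0.59).

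Foxd3 (chromosome 4, 99322990 to 99325362, plus strand), a forkhead factor, had its highest values in the polyA libraries, 27.4, 28.6 and 28.0 TPM. Among ribodepleted libraries it was at 17.1 and 20.9 TPM in WT and at 14.1 and 13.6 TPM in TKO at 0 h, and at 9.09 and 12.5 TPM in WT and 8.87 and 7.46 TPM in TKO at 4 h. It was thus lower in TKO at both times, although the WT replicates also differed from each other. The log2 change at 0 h was -0.52 (SE 0.139, adjusted p = 0.0121) and at 4 h -0.50 (SE 0.139, adjusted p = 0.0132), neither of which was called. Both changes moved with single libraries. Without WT 0 h replicate 1 the change at 0 h was -0.69 and was called, whereas without WT 0 h replicate 2 it was -0.35 and lost the limit on p (adjusted p = 0.0860). Without WT 4 h replicate 1 that at 4 h was -0.70 and was called, as with quantile normalization (-0.60), whereas without WT 4 h replicate 2 it was -0.32 (adjusted p = 0.0897). The limit on p was also lost without TKO 0 h replicate 2 at 0 h (adjusted p = 0.0551), and at 4 h without TKO 4 h replicate 2 (adjusted p = 0.0706) and with the deposited TPM left unscaled (adjusted p = 0.0643). A microRNA gene annotated on the same strand in GENCODE shares 89 exon bases with Foxd3. Whether it was in the annotation used for counting, and how reads there were counted, is not given in the sources used here.

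Otx2 (chromosome 14, 49277354 to 49287319, minus strand), a homeodomain factor, was at 9.66 and 10.4 TPM in WT and at 8.43 and 7.28 TPM in TKO at 0 h. At 4 h it was at 6.28 and 7.10 TPM in WT and at 6.04 and 6.06 TPM in TKO, and at 9.90, 10.6 and 10.9 TPM in the polyA libraries. Its log2 changes in TKO, -0.41 at 0 h (SE 0.0935, adjusted p = 0.00574) and -0.26 at 4 h (SE 0.0935, adjusted p = 0.0380), were below the limit on fold and were not called. Over the alternatives they ran from -0.51 to -0.29 at 0 h and from -0.41 to -0.12 at 4 h. Under some of these the limit on p was lost as well.

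Grhl2 (chromosome 15, 37162791 to 37293324, plus strand), a grainyhead factor that opens epithelial enhancers, was at 27.7 and 26.9 TPM in WT and at 23.1 and 22.3 TPM in TKO at 0 h. At 4 h the genotypes overlapped, with 16.9 and 19.0 TPM in WT and 20.6 and 18.0 TPM in TKO, and the polyA libraries were at 19.7, 19.4 and 19.9 TPM. The log2 change in TKO was -0.35 at 0 h (SE 0.0631, adjusted p = 0.00160) and -0.05 at 4 h (SE 0.0631, adjusted p = 0.513), and neither was called. The second of these turned to 0.10 with the deposited TPM left unscaled. An antisense transcript shares 169 exon bases with Grhl2, and the strand setting of the counting is not given in the sources used here.

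**Figure D1:**
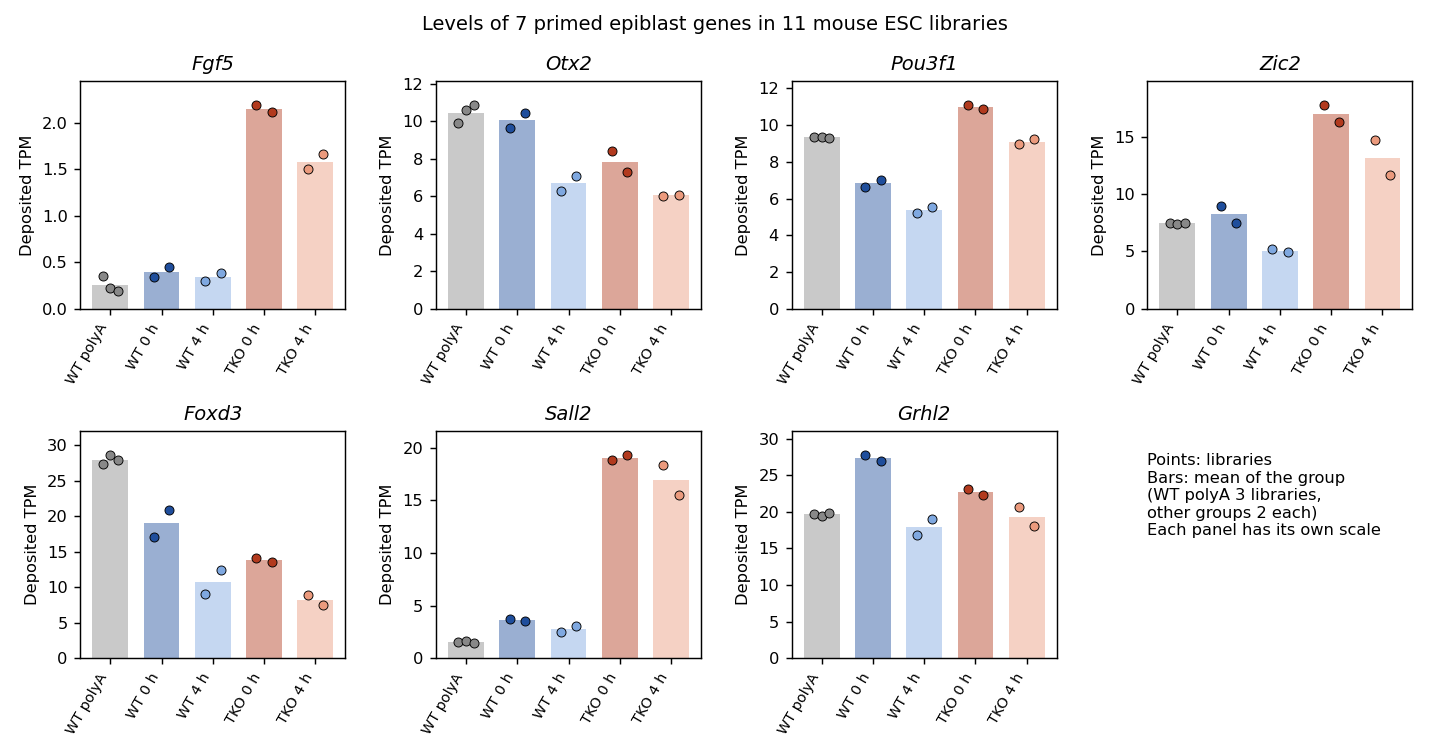
Deposited TPM (y axis, a separate scale for each gene, from 0) of the 7 genes in the 5 groups (x axis). Points are libraries and bars are group means, with 3 WT polyA libraries and 2 libraries in each other group. Fgf5, Zic2 and Sall2 are higher in all 4 TKO libraries than in all WT libraries, whereas Foxd3 is highest in the polyA libraries and lower at 4 h than at 0 h.

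The order of the 7 levels differed between genotypes. In WT at 0 h Grhl2 was highest (27.3 ± 0.556 TPM), followed by Foxd3 (19.0 ± 2.74), Otx2 (10.1 ± 0.552), Zic2 (8.22 ± 1.09), Pou3f1 (6.83 ± 0.292), Sall2 (3.63 ± 0.0912) and Fgf5 (0.393 ± 0.0707; SD, n = 2 each). In TKO at 0 h Grhl2 was still highest (22.7 ± 0.615), and Sall2 (19.0 ± 0.333) and Zic2 (17 ± 1.01) came next, ahead of Foxd3 (13.8 ± 0.360), Pou3f1 (11 ± 0.144), Otx2 (7.85 ± 0.816) and Fgf5 (2.15 ± 0.0501; SD, n = 2 each). Libraries of neighbouring genes did not overlap in either order. At 4 h Pou3f1 and Zic2 overlapped in WT, as did Grhl2 and Sall2 in TKO. Fgf5, last in every group, lay at the 23.5th percentile of the genes above 0 in WT at 0 h and at the 37.5th in TKO, while Sall2 moved from the 42.8th to the 64.4th.

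TKO and WT cells were compared for these markers, and an effect of losing the 3 Tet genes cannot be told apart from a difference between lines. Fgf5, whose higher level in TKO is what took it past the filter, is left out of the counts set beside all genes. At 0 h, 2 of the other 6 genes (Sall2 and Zic2) were called higher in TKO, against 10.5% of the 12467 tested genes, and 0 were called lower, against 5.43%. At an adjusted p under 0.05 alone, 3 were higher and 3 lower, against 27.8% and 28.2% of tested genes. The median log2 change of the 6 was 0.09 (0.52 with Fgf5) and that of all tested genes -0.02. All 6 had libraries that did not overlap between genotypes, which also held for 81.7% of tested genes. At 4 h Sall2 and Zic2 were again called higher, 2 of 6 against 11% of tested genes, and 0 were called lower, against 5.82%. Fgf5 was at 0.90 at 4 h (SE 0.113, adjusted p = 0.000181) and past both limits. The other 4 genes were not called, and the libraries of 5 of the 6 did not overlap, against 78.3%. Over all genes 65.5% of the calls at 4 h were higher in TKO, against 81.4% with the deposited TPM left unscaled and 54.8% with quantile normalization.

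**Figure D2:**
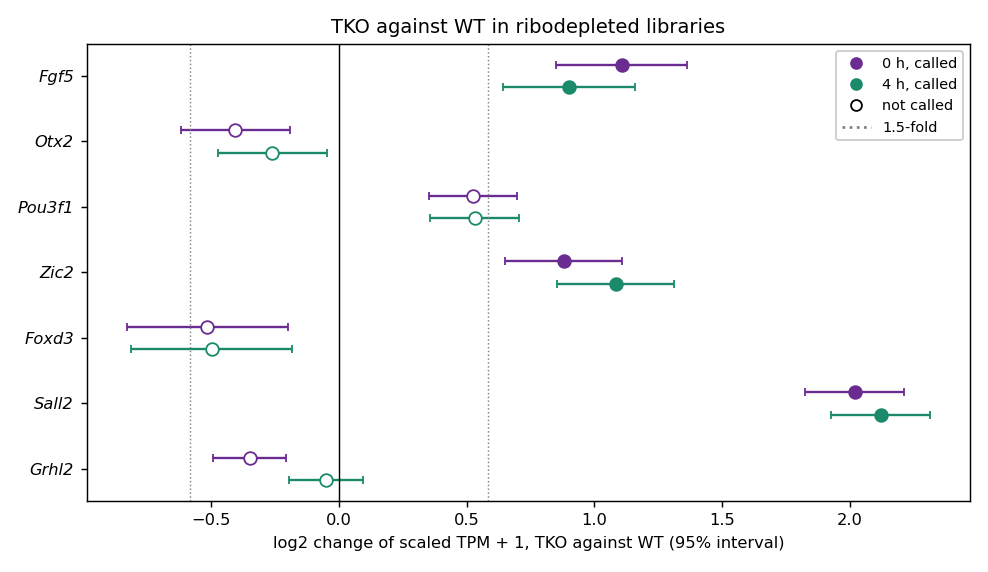
Log2 change of scaled TPM + 1 between TKO and WT (x axis) for the 7 genes (y axis) at 0 h (purple) and 4 h (green), with 95% intervals. The intervals are from the limma fit on 8 libraries, 2 per group, which assumes the same spread in every group. Filled points were called and dotted lines mark 1.5-fold. Sall2 lies near 2 at both times, Fgf5 and Zic2 lie between 0.88 and 1.11, and Foxd3, Otx2 and Grhl2 lie below 0.

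Libraries after 4 h of α-amanitin were compared with untreated libraries at 0 h, by each transcript's share of the library. None of the groups is labelled as untreated at 4 h, so the drug and 4 h in culture cannot be told apart. How completely transcription was blocked was not tested. TPM are relative, so a loss common to all transcripts cannot be seen, and a value below 0 means only that a transcript lost share against the typical gene. In WT all 7 log2 changes were below 0, with a median of -0.38 against 0.03 over all tested genes. Only Foxd3 was called lower, by -0.62 (SE 0.139, adjusted p = 0.0117), against 2.01% of tested genes, with a mean scaled TPM at 63.1% of that at 0 h. This call was lost without WT 0 h replicate 2 (-0.46, adjusted p = 0.0590) and without WT 4 h replicate 1 (-0.43, adjusted p = 0.0779), and with quantile normalization (-0.55) or 5 TPM added (-0.50). The share of all tested genes called lower also moved, to 1.10% without WT 4 h replicate 1, 1.19% with 5 TPM added, 0.924% with no filter and 4.69% unscaled. Zic2 (-0.46, adjusted p = 0.0109), Grhl2 (-0.43, adjusted p = 0.00533) and Otx2 (-0.38, adjusted p = 0.0154) were also lower but by less than 1.5-fold, which makes 4 genes lower at an adjusted p under 0.05, against 15.8% of tested genes. Each of these 4 lost the limit on p under some alternative. Pou3f1 (-0.16), Sall2 (-0.17) and Fgf5 (-0.02) did not pass, and the interval of the Fgf5 change ran from -0.27 to 0.24. Libraries at 4 h and 0 h did not overlap for 6 of the 7, against 72.9%. With the deposited TPM left unscaled the median of all genes was at -0.11, and Zic2 was then also called (-0.60).

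In TKO none of the 7 was called after 4 h, against 0.160% of tested genes called lower, which were 20 genes. This background depended on the libraries: 130 genes (1.05%) were called lower without TKO 4 h replicate 1 and 0 to 7 without any other library. At an unadjusted p under 0.05, 3 of the 7 were lower, against 11.3% of tested genes. All 7 log2 changes were again below 0. The change of Foxd3 was -0.61 (SE 0.139, adjusted p = 0.0992), and its mean scaled TPM was at 63.1% of that at 0 h. Without TKO 4 h replicate 1 it was -0.68 and was called (adjusted p = 0.0334), and limma voom also called it (-0.67, adjusted p = 0.0114), against 1.05% and 0.385% of tested genes called lower in these settings. Without each of the other libraries it was not called, with an adjusted p of up to 0.393. Zic2 (-0.26), Otx2 (-0.24), Fgf5 (-0.22), Pou3f1 (-0.16), Grhl2 (-0.13) and Sall2 (-0.07) kept between 78.7% and 95% of their scaled TPM. Libraries at 4 h and 0 h did not overlap for 6 of the 7, against 58.7%.

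The interaction term tests whether the change over 4 h differed between genotypes. It called none of the 7 and 0% of the 12467 tested genes by limma, with 938 genes at an unadjusted p under 0.05, and limma voom also called 0. Without TKO 4 h replicate 2 there were 8 called genes and 2522 at an unadjusted p under 0.05. Without TKO 4 h replicate 1 there were 2 called genes, without either WT 4 h library 3, and with no filter 4, none of them among the 7. Grhl2 had the smallest unadjusted p of the 7, 0.00898 (adjusted p = 0.662), with 73.3% of its scaled TPM left after 4 h in WT and 90.9% in TKO, a difference of 0.30 on the log2 scale (95% interval 0.10 to 0.50). For Foxd3 the difference was 0.02, but the interval ran from -0.43 to 0.46 and so leaves room for sizeable differences in either direction.

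**Figure D3:**
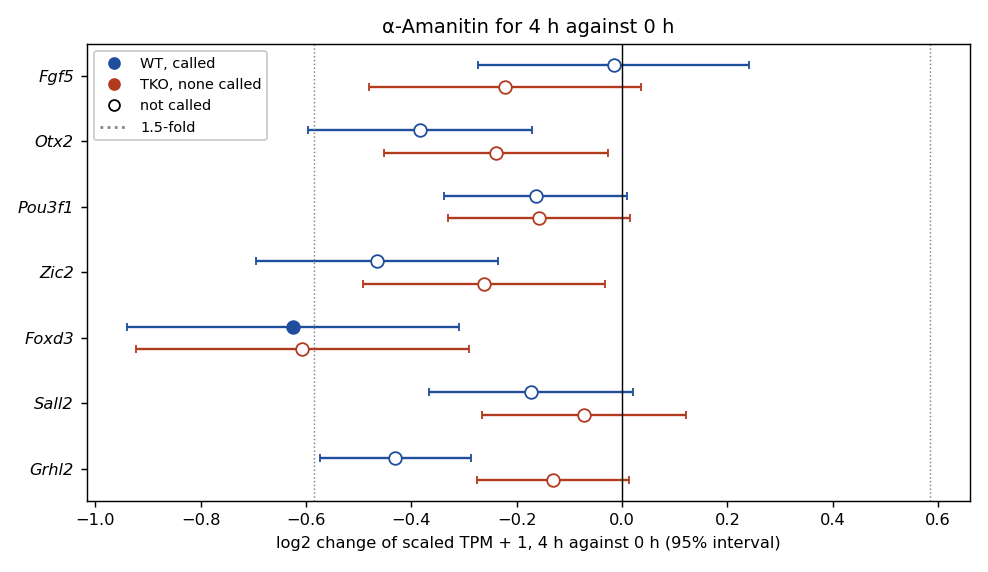
Log2 change of scaled TPM + 1 after 4 h of α-amanitin (x axis) for the 7 genes (y axis) in WT (blue) and TKO (red), with 95% intervals. The intervals are from the limma fit on 8 libraries, 2 per group, which assumes the same spread in every group. The filled point was called and dotted lines mark 1.5-fold. All points lie below 0, from -0.62 to -0.02 in WT and from -0.61 to -0.07 in TKO, and Foxd3 is the lowest in both.

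The 3 polyA libraries and the 2 ribodepleted libraries of WT cells at 0 h were compared in a separate fit of 12481 genes. RNA selection and sequencing experiment cannot be told apart in it. Fgf5 was not tested, since its mean was under 1, and of the other 6 genes 1 was called lower in polyA libraries, against 16.4% of tested genes, and 0 higher, against 18.7%. The called gene was Sall2, at -0.93 (SE 0.0754, adjusted p = 5.09e-06), a polyA level of 39.8% of that in ribodepleted libraries. Grhl2 (-0.56), Foxd3 (0.44), Pou3f1 (0.31) and Zic2 (-0.21) passed the limit on adjusted p but not that on fold, and Otx2 was at -0.04 with overlapping libraries. Foxd3 was called higher (0.60) without WT 0 h replicate 2, and the Sall2 call was lost with 5 TPM added (-0.43) or with the filter at 5 TPM, which leaves Sall2 out.

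Genes of related lists were then read beside the 7, at 0 h in TKO against WT. In that comparison 10.5% of all tested genes were called higher and 5.43% lower. Of 14 other formative and primed epiblast genes, all tested, 2 were called higher, Hes6 (0.95) and Sox3 (0.89), a helix-loop-helix and an SRY-box factor. The WT means of Sox3 after scaling were 0.506 TPM (0 h) and 0.399 TPM (4 h), under the filter limit of 1. Like Fgf5, Sox3 was therefore tested only because of its TKO level, and its call carries the same limit. In the same list 2 were called lower, the growth factor gene Fgf15 (-1.76) and Tcf15 (-1.65), a helix-loop-helix factor of cells leaving the naive state. The other 10 were not called, among them the DNA methyltransferase genes Dnmt3a (-0.36) and Dnmt3b (-0.31), and the median of the list was 0.07. With Sox3 set aside, Hes6 was still called higher. Markers of the same transition were therefore called in both directions, as were genes over all tested genes.

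Of 12 naive pluripotency genes, 6 were called lower, against 5.43% of all tested genes, and 0 higher, against 10.5%, with a median of -0.59. Zfp42 (Rex1) fell by 2.08, Tcl1 by 0.99, Klf4 by 0.98 and Nr0b1 by 0.87 on the log2 scale, and Esrrb and Klf5 were also called. The summed level of the 12 was 1497 to 1566 TPM in WT and 929 to 940 TPM in TKO at 0 h, and Nanog, Prdm14, Tfcp2l1, Klf2, Tbx3 and Dppa3, with log2 changes of -0.56 to 0.19, were not called.

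Among 7 FGF ligands and receptors, of which 4 were tested, Fgfr1, which encodes a receptor for FGF ligands in ESCs, was called higher (0.67) beside the lower Fgf15, and Fgf4 (-0.08) and Fgfr2 (-0.06) were not called. Of 7 epithelial genes of the Grhl2 programme, the claudin genes Cldn7 (1.17) and Cldn4 (0.80) were called higher and Rab25 (-1.17), a trafficking GTPase gene, lower, while Cdh1, Epcam, Esrp1 and Ovol1, at -0.49 to 0.32, were not called. Among 16 paralogues of the 7 genes, 7 were tested and 1 was called, Grhl3, lower by -0.87. For these lists too, the shares over all tested genes were 10.5% called higher and 5.43% called lower. Zic5, which lies 9.7 kb from Zic2, had a log2 change of 0.41 and was not called, and Sall1 (-0.28), Sall3 (-0.15) and Sall4 (-0.06) did not share the direction of Sall2.

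**Figure D4:**
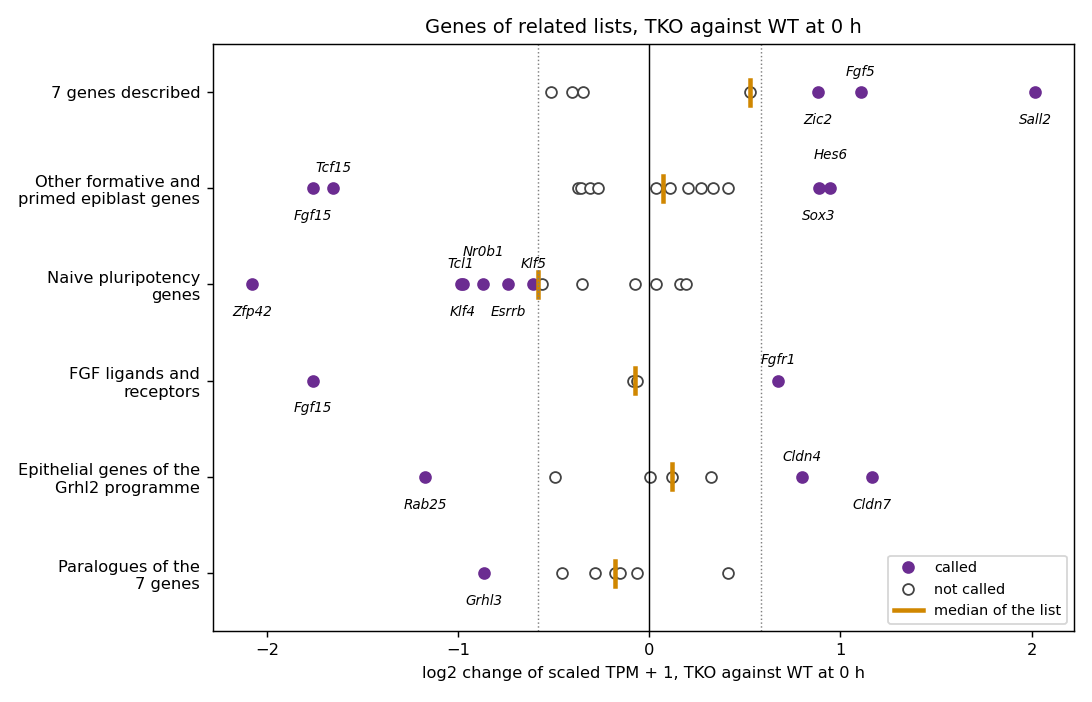
Log2 change of scaled TPM + 1 in TKO against WT at 0 h (x axis) for the tested genes of 6 lists (y axis). Filled points were called and carry the gene name, dotted lines mark 1.5-fold and orange bars are list medians. The medians are 0.52 for the 7 genes described (0.09 without Fgf5), 0.07 for the other formative and primed genes and -0.59 for the naive genes.

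Markers of other cell types were then summed. In the polyA libraries the 4 neural ectoderm markers reached 16.8 to 17 TPM, through Sox1 (13.8 TPM, above Otx2 at 10.5 TPM there), and the 6 mesendoderm markers 6.88 to 7.78 TPM, through Eomes (6.27 TPM). Among ribodepleted libraries at 0 h the summed level of 3 trophectoderm markers was 1.09 to 1.19 TPM in WT and 4.50 to 4.60 TPM in TKO, mostly through Hand1, which was called higher. The summed level of 5 fibroblast markers was 6.58 to 6.69 TPM in WT and 10.3 to 10.8 TPM in TKO, through Col1a2, also called higher, with Lum at 0 in WT. Postn in the same list went the other way, with means of 1.01 TPM in WT and 0.292 TPM in TKO. Col1a1 (0.25) and Thy1 (-0.04) were not called. Sums for 6 mesendoderm markers (5.60 to 5.82 TPM in WT, 5.57 to 7.19 TPM in TKO) and 4 neural ectoderm markers (4.23 to 4.61 TPM and 4.27 to 5.06 TPM) overlapped between genotypes. That of 5 endoderm markers was 3.01 to 3.26 TPM in WT, with Afp and Ttr at 0, and 1.76 to 1.93 TPM in TKO, with Ttr at 0. Of these 5 only Gata4 was tested, and it was called lower in TKO at 0 h (-0.61) but not at 4 h (-0.52). The mesendoderm marker T was called lower in TKO at 4 h (-0.61), where Hand1 (1.55) and Col1a2 (1.13) were again called higher. At 4 h the trophectoderm sum was 0.563 to 0.756 TPM in WT and 3.18 to 3.42 TPM in TKO, and the fibroblast sum 6.42 to 7.54 TPM and 10.8 to 11.8 TPM. The WT means of Hand1 after scaling were 0.275 TPM (0 h) and 0.138 TPM (4 h). Hand1, like Fgf5, thus passed the filter only through its TKO level, which limits its call. The part of other cell types in the higher Fgf5, Sall2 and Zic2 levels, and in the polyA levels, was not tested.

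For each gene called in a comparison of ribodepleted libraries, the 3 tested genes with the most similar profile were named by the root mean square (RMS) difference between centred log2 profiles over the 8 libraries. Since these profiles include the genotype difference, the likeness is a description. Nearest to Fgf5 were Sp6 (RMS difference 0.0581), a zinc finger factor gene, Lama3 (0.0635), a laminin chain gene, and Tnfrsf12a (0.0704), a receptor gene. Nearest to Sall2 were Cd200 (0.0605), Inpp5d (0.0714), a lipid phosphatase gene, and Tnfrsf8 (0.0922), the CD30 gene. All 6 had higher levels in TKO at 0 h, which follows from how they were chosen, such as 12.4 against 5.59 scaled TPM for Sp6 and 36.9 against 8.20 for Inpp5d. The WT means of Lama3 (0.780) and Cd200 (0.282) at 0 h were under the filter limit of 1. Nearest to Zic2 were Gm13154 (0.0884), Amotl2 (0.0933) and the Wnt receptor gene Fzd8 (0.0980). Nearest to Foxd3 were Spry4 (0.105), which encodes an inhibitor of receptor tyrosine kinase signalling, 2700038G22Rik (0.117) and the kinase gene Pim3 (0.133). Spry4 was at -0.42 in TKO against WT at 0 h and at -0.51 and -0.54 after 4 h in WT and TKO.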

How the data were processed

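The deposited values are TPM per gene. The authors removed reads of low complexity (AfterQC) and those matching ribosomal or transfer RNA (Bowtie2), trimmed adapters (Trimmomatic), aligned to mm9 with STAR and counted RefSeq genes with HTSeq, from which they computed TPM. Software versions and the strand setting are not given in the sources used here. Groups and replicate numbers came from sample titles. The 7 genes, the lists and the alternatives were chosen with earlier results of these data known.

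Here TPM were scaled by median-of-ratios size factors over the 8 ribodepleted libraries. A limma 3.58.1 model (R 4.3.3, lmFit then eBayes, variance trend on) with a term per group was run on log2(scaled TPM + 1) for the 12467 genes whose mean scaled TPM exceeded 1. The polyA libraries and WT 0 h were fitted separately (12481 genes). P-values are two-sided, with Benjamini-Hochberg adjustment over all tested genes. The study tested raw counts instead, and its limits on adjusted p (0.05) and fold (1.5) were kept on TPM. The fit was tested on simulated data. Named list genes were those called in TKO against WT at 0 h, at most 4 per list by size, with others named to account for a list after their values were seen. Fgf5, by its level, was untested in the polyA fit.

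TPM steps gave whole reads for 100% of the 19869 genes above 0 in any library, up to a divisor common to the libraries of a gene. The smallest chi-square of a replicate pair was 1.53 times its degrees of freedom, so no library was counted as a repeat. Alternatives were other scalings, pseudocounts (0.1 and 5 TPM) and filters, a replicate block, no variance trend, no fold limit, limma voom on recovered reads, each library left out and fits on 2 groups alone. Libraries that share a number deviated from the means of their groups with correlations of -0.044 to 0.12, and no source says that numbers mark a shared batch, so they were not treated as pairs. Positions are from GENCODE vM1 on NCBIM37.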

Additional observations from a re-analysis of the deposited data

How the results depend on the processing

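The 41 log2 changes of the 7 genes and the 6 counts of called genes were recomputed under each alternative. Direction and call were both kept by 395 of 430 log2 changes from other settings and 272 of 295 from leaving out a library. A change that was not called could lose the limit on p and still be counted here as kept. With the replicate number as a block, which does not pair these libraries by any label, the counts of called genes were unchanged at 3 and 3 in TKO against WT at 0 h and 4 h, 1 and 0 over 4 h in WT and TKO, 0 for the interaction and 1 for polyA RNA, and the count over all genes at 0 h went from 1986 to 1990. These counts include Fgf5. Without the limit on fold they became 7 and 6 in TKO against WT at 0 h and 4 h, 4 over 4 h in WT and 5 for polyA RNA, where 56.1%, 59.4%, 37.7% and 81.0% of all tested genes passed. With Fgf5 left out, 3 of the other 6 genes were then higher and 3 lower in TKO at 0 h, and 3 higher and 2 lower at 4 h. The 1 called gene over 4 h in WT, Foxd3, became 2 with unscaled TPM and 0 with quantile normalization or 5 TPM added, and 0 to 1 with a library left out. The count over 4 h in TKO became 1 by limma voom, and 0 to 1 with a library left out. The count for polyA RNA became 0 with 5 TPM added or a filter of 5 TPM, and 1 to 2 with a library left out. The cause of these shifts was not tested.

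The reversed log2 change furthest from 0 was -0.18, that of the Foxd3 interaction without WT 4 h replicate 1. Grhl2 in TKO against WT at 4 h was at 0.10 with unscaled TPM and from -0.12 to 0.0028 with a library left out. Fgf5 over 4 h in WT was at 0.009 with quantile normalization and from -0.075 to 0.0435 with a library left out. Sall2 over 4 h in TKO ran from -0.14 to 0.0016 with a library left out. For the interaction, Foxd3 was at -0.0233 with quantile normalization and -0.0003 by limma voom, and from -0.18 to 0.20 with a library left out, Pou3f1 was at -0.0566 with quantile normalization and -0.008 with 5 TPM added, and from -0.0561 to 0.0704 with a library left out, and Sall2 ran from -0.0034 to 0.19. Otx2 in polyA RNA was at 0.0523 with unscaled TPM and 0.0153 with quantile normalization, and from -0.13 to 0.0254 with a library left out.

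Fgf5 fell under the filter, and so had no value, with the filter at 5 TPM and without either TKO 0 h library or TKO 4 h replicate 2, and in fits on 2 groups alone other than TKO against WT at 0 h and 4 h against 0 h in TKO. A fit on 2 groups alone has no interaction. With 2 libraries per group, a fit without one assumes that the lone library varies like those of the other groups. TPM hide changes shared by all transcripts, and the low read numbers of Fgf5 in WT limit its ratio.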
